A study of Mus musculus with 8 samples.

Results

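Ly6c2, Plac8, F13a1, Fn1 and Vcan are transcripts used as markers of monocytes and of macrophages that have recently arisen from them. Other cells also carry some of these transcripts. The 5 genes were chosen by symbol, with earlier results of these data known. They are 5 of the 24421 gene symbols counted in each library. All 5 were among the 13821 genes that passed the filter on low counts and were tested. Their levels were read in 8 RNA-seq libraries of primary mouse macrophages, all from mice on a normal diet: 3 libraries labelled WT, 3 labelled LysM-DKO and 2 labelled ABCG1KO. The design text calls the knockout of the LysM-DKO libraries Epsin-DKO, and these were taken as 1 group. LysM is the older name of the lysozyme gene Lyz2, whose promoter is widely used to drive Cre recombinase in myeloid cells. The labels do not describe the alleles, the tissue, the age or the sex, nor whether replicates came from separate mice, so p-values measure the spread between these libraries, which may be technical.

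Monocytes leave the bone marrow through the chemokine receptor CCR2, and the cells that enter inflamed tissue carry high surface Ly6C, the product of Ly6c2 and its near copy Ly6c1. As they become macrophages they lose Ly6C and change the matrix and coagulation proteins that they make. In the peritoneal cavity, large resident macrophages of embryonic or long-lived origin are found beside smaller macrophages that monocytes replenish. Ly6c2 encodes a small surface protein held by a lipid anchor. Plac8 encodes a small cysteine-rich protein of myeloid cells, F13a1 the A subunit of coagulation factor XIII, which crosslinks fibrin and fibronectin, Fn1 fibronectin, and Vcan versican, a large chondroitin sulphate proteoglycan that binds hyaluronan.

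The libraries were comparable in depth, with 29567615 to 41888516 counts in genes. Abcg1, the cholesterol exporter, was 60.4 and 73.4 CPM (the usual per-library scale, here over composition-scaled library sizes) in ABCG1KO against 344.6 to 405.2 in WT, a difference that passed the test (log2 fold change -2.52, SE 0.372, edgeR quasi-likelihood adjusted p = 0.00414). The epsin gene Epn1 was 154.5 to 182.7 CPM in the libraries labelled LysM-DKO and 191.2 to 229.7 in WT (log2 fold change -0.30, SE 0.134, edgeR adjusted p = 0.430), and Epn2 was 5.67 to 13.2 against 4.97 to 8.86, so the counts over these whole genes did not show the loss that the label names. Summed over 11 macrophage markers, all of them above 1 CPM in every library, levels were 19730 to 23590 CPM in WT, 12900 to 15390 in LysM-DKO, with 25120 and 21080 in ABCG1KO. All 3 LysM-DKO libraries lay below the other 5. Lyz2 is 1 of those 11 markers and made up most of the WT sum. Its level was lowest in the 3 LysM-DKO libraries, at 6177 to 8105 CPM against 13000 to 15710 in WT (log2 fold change -1.09, SE 0.202, edgeR adjusted p = 0.173). The lower sum is therefore not a finding separate from Lyz2. Between LysM-DKO and WT the 11 markers had a median log2 difference of -0.12, with 3 above 0 and 8 below, and edgeR called none. The ABCG1KO libraries stood apart in ways that involve more than Abcg1: 6.74% and 6.93% of their counted reads aligned to several loci against 2.65% to 3.01% in the other 6, 10.2% and 13.8% fell outside annotated genes against 4.27% to 6.07%, and Gapdh was 2.05 and 4.99 CPM against 730.6 to 1705. Xist, transcribed from the inactive X chromosome, was 79.1 to 265.3 CPM in WT and in LysM-DKO replicates 2 and 3, and was at most 2 counts in LysM-DKO replicate 1 and ABCG1KO, where the Y-linked Ddx3y was 81.6 to 94.8 CPM. Genotype therefore cannot be told apart from the way these reads were prepared or aligned in any comparison with ABCG1KO, nor from sex in ABCG1KO against WT. LysM-DKO replicate 1 shared the sex-linked pattern of ABCG1KO. It had 0 counts of Ly6c2 and 23.9, 1341 and 2.84 CPM of F13a1, Fn1 and Vcan, each below both ABCG1KO libraries. Its Plac8 level, 1.21 CPM, lay between those of the ABCG1KO libraries. The part of sex in these levels was not tested.

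All 5 genes lie on the minus strand of the mouse genome (GRCm38, GENCODE vM21). Ly6c2 spans chr15:75108158-75111970 in the Ly6 cluster, near Ly6c1 at chr15:75044018-75048830. Plac8 spans chr5:100553725-100572245, Fn1 chr1:71585520-71653200, F13a1 chr13:36867178-37050244 and Vcan chr13:89655312-89742509. Genes on the opposite strand overlap F13a1, Fn1 and Vcan, and the strand setting of the counting is not given in the sources used here. Of all 50-base stretches in the transcripts of Ly6c2, 14.5% also occur in another gene, 13.9% in Ly6c1, so the counts of those 2 genes are uncertain against each other. That share was 2.51% for Fn1, 0.404% for F13a1 and 0 for Plac8 and Vcan.

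Start regions are shown for Ly6c2 and Ly6c1, to show how alike the 2 copies are, and for F13a1, which holds the same letters. RefSeq (GRCm38.p6) gave start regions for 4 of the 5 genes. Each sequence runs from 250 bases before a listed start to 30 bases from it, 5′ to 3′ on the minus strand. Capitals mark GAGGAAGT, letters of the binding motif of PU.1, a transcription factor of myeloid cells.
Ly6c2 (chr15:75111908-75112187): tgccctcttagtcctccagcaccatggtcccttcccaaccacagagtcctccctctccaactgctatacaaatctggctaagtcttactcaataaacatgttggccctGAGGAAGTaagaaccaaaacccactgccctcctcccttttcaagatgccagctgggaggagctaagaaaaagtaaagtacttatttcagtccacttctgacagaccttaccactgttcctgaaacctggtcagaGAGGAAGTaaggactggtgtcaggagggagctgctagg
Ly6c1 (chr15:75048634-75048913): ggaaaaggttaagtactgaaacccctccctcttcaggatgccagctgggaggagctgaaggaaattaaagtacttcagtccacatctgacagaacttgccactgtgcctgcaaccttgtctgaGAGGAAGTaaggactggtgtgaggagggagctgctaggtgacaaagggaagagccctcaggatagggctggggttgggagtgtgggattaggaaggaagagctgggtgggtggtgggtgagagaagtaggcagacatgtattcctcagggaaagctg
F13a1 (chr13:37049184-37049463): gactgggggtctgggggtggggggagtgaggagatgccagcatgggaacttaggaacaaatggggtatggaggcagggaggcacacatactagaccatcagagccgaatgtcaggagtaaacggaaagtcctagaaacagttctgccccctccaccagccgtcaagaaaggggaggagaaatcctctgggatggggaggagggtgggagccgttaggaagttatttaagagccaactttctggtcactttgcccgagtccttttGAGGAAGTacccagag
The letters GAGGAAGT stood at 142 and 8 bases before the start in Ly6c2, at 127 bases before it in Ly6c1 and at 14 bases from it in F13a1. Searched on both strands, they occur in 3.2% of the 32851 RefSeq start regions of 300 bases. Ly6c2 and Ly6c1 were aligned over the full start regions of 300 bases, of which the printed sequences are part. For the pair of starts printed here, 181 bases aligned and were 88.4% identical. Over the other 3 pairings of their listed starts they were 63.3% to 80.2% identical. The other listed start region of Ly6c2 also holds these letters, and those of Ly6c1 and F13a1 do not. None of the listed start regions of Plac8 and Vcan holds them. The C/EBP letters TTGCNNAA (10.8% of all start regions) were found 12 bases before 1 listed start of Plac8, and neither they nor TGANTCA (AP-1, 7.81%) were found in the listed start regions of Ly6c2, Ly6c1, F13a1 or Vcan. A match of letters is a description of sequence and not of binding.

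Ly6c2 was near the limit of detection in WT and LysM-DKO and was counted in both ABCG1KO libraries. Its counts in the WT libraries were 0, 10 and 1, or 0, 0.276 and 0.0259 CPM. In LysM-DKO they were 0, 0 and 1, and in ABCG1KO 361 and 45, or 11.3 and 1.06 CPM. Both ABCG1KO libraries lay above all 6 others, and replicate 1 was 10.7 times as high as replicate 2. In ABCG1KO against WT the log2 fold change was 5.89 (SE 1.44, edgeR quasi-likelihood adjusted p = 0.0293), with a 95% interval of 2.6 to 9.19. The call was lost without WT replicate 1 (5.34, edgeR adjusted p = 0.0735), without WT replicate 3 (5.44, edgeR adjusted p = 0.0860) and without ABCG1KO replicate 1 (3.36, edgeR adjusted p = 0.220). LysM-DKO had at most 1 count in any library, and the ABCG1KO mean of 6.19 CPM was at least 84.1-fold higher than the 0.0736 CPM that 3 counts in each LysM-DKO library would give (edgeR adjusted p = 0.0160). That call was lost when ABCG1KO replicate 1 (edgeR adjusted p = 0.0986) or any of LysM-DKO replicates 1, 2 and 3 (edgeR adjusted p = 0.0559, 0.0577 and 0.0540) was left out. Between WT and LysM-DKO, at 11 counts and 1 count over 3 libraries each, a difference was not detectable at this depth.

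The copy of Ly6c2, Ly6c1, had 0, 2 and 1 counts in WT, 6, 5 and 1 in LysM-DKO, with 10 and 4 in ABCG1KO. It did not carry the large count that Ly6c2 had in ABCG1KO replicate 1. Ly6i, another gene of the Ly6 cluster, had 1, 1 and 0 counts in WT, 1, 13 and 2 in LysM-DKO, with 186 and 84 in ABCG1KO. Its ABCG1KO mean was at least 47.2-fold higher than 3 counts per WT library would give (edgeR adjusted p = 0.00802). Like Ly6c2, Ly6i passed the filter on low counts only through its ABCG1KO counts, so its call is a description. Ly6a, a surface protein of stem cells and interferon-exposed cells, went another way: 1.52, 11.5 and 0.776 CPM in WT, 2.93, 9.75 and 1.000 in LysM-DKO, with 1.25 and 0.896 in ABCG1KO. Of 10 other Ly6 family genes counted, 6 were tested, 1 rose in ABCG1KO against WT (Ly6i) and none fell. Over all genes tested, 7.21% rose and 8.83% fell. The median log2 fold change of the 6 was -0.57, or -0.08 with genes at the floor set to their bounds, against 0.01 over all genes tested.

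Plac8 was low in all 3 groups, with no difference that passed the test. Its levels were 0.967, 3.01 and 0.776 CPM in WT and 1.21, 2.39 and 2.30 in LysM-DKO. ABCG1KO held both the highest and the lowest value of all 8 libraries, 3.54 and 0.637 CPM. The groups overlapped in every comparison. The log2 fold change was 0.31 (SE 0.753) in LysM-DKO against WT, 0.39 (SE 0.836) in ABCG1KO against WT and -0.08 (SE 0.839) in LysM-DKO against ABCG1KO, with edgeR adjusted p = 0.890, 0.786 and 0.959. The 95% interval of the ABCG1KO difference, -1.52 to 2.31, reaches from a fall to a rise of over 2 log2 units. Without ABCG1KO replicate 1 the sign of that difference turned to -1.31 (edgeR adjusted p = 0.447).

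F13a1 varied widely among the WT and among the LysM-DKO libraries and was high in both ABCG1KO libraries. It was 25.5, 55.3 and 2.67 CPM in WT, a span of 20.8-fold, and 23.9, 115.1 and 12.6 CPM in LysM-DKO, a span of 9.17-fold. In ABCG1KO it was 257.9 and 187.1 CPM. Both ABCG1KO libraries were above all 6 others, while WT and LysM-DKO overlapped. The difference of ABCG1KO from WT was 3.00 on the log2 scale (SE 1.19, 95% interval 0.24 to 5.76) and did not pass the test (edgeR adjusted p = 0.130). LysM-DKO differed from WT by 0.86 (SE 1.06, edgeR adjusted p = 0.764), and this turned to -0.61 without LysM-DKO replicate 2, the library with the highest level. Against ABCG1KO, LysM-DKO was at -2.14 (SE 1.16, edgeR adjusted p = 0.253).

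**Figure D1:**
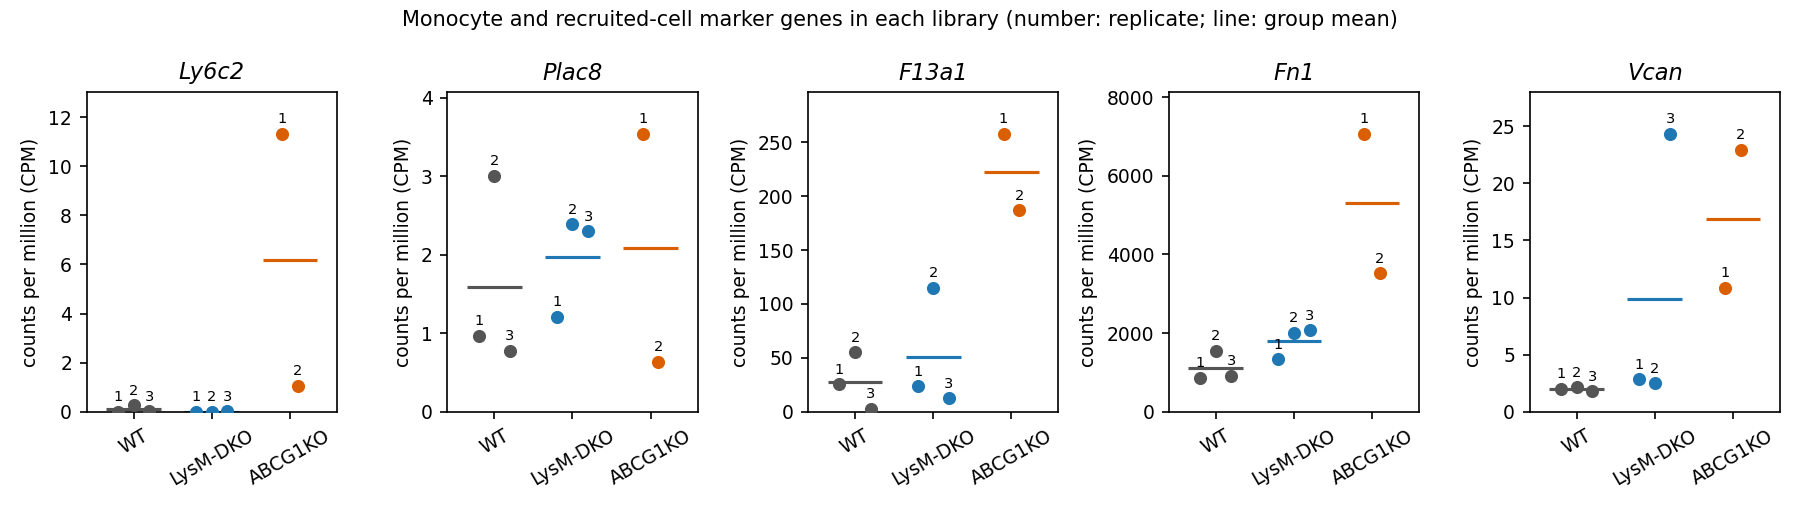
Level of each of the 5 genes in each of the 8 libraries, as CPM, 1 panel per gene with libraries grouped as WT, LysM-DKO and ABCG1KO. Points are single libraries, numbered by replicate, and lines are group means: both ABCG1KO points lie above all WT points for Ly6c2, F13a1, Fn1 and Vcan, and the groups overlap for Plac8.

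Factor XIII acts at the end of the coagulation cascade, so the other genes of coagulation and fibrinolysis were read beside F13a1. Of 14 tested, 3 rose in ABCG1KO against WT and none fell, with a median log2 fold change of 0.41. The shares of all genes tested were 7.21% that rose and 8.83% that fell. Serpinb2, an inhibitor of plasminogen activators, was 0.938, 7.93 and 1.01 CPM in WT and 136.8 and 66.3 in ABCG1KO (4.95, SE 1.05, edgeR adjusted p = 0.0201). Its call was lost without ABCG1KO replicate 1 (edgeR adjusted p = 0.0979), without WT replicate 1 (edgeR adjusted p = 0.0577), without WT replicate 3 and with no count filter (edgeR adjusted p = 0.0525). Pros1, which encodes the anticoagulant protein S, differed by 1.00 (SE 0.222, edgeR adjusted p = 0.0207), and its call was lost without WT replicate 1, WT replicate 3 or ABCG1KO replicate 1. Megakaryocytes and platelets also carry factor XIII A subunit: 8 of their markers summed to 10.2 to 38.2 CPM in WT, 104.5 and 170.1 in ABCG1KO and 15.9 to 45.2 in LysM-DKO. Most of that was Pf4 (99.1 and 163.4 CPM in ABCG1KO), and its part in the F13a1 level was not tested.

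Fn1 had the highest level of the 5 genes per transcript length in every library and was higher in ABCG1KO than in either other group. It was 861.3, 1548 and 920.9 CPM in WT, 1341, 2009 and 2074 in LysM-DKO, and 7071 and 3524 in ABCG1KO. Both ABCG1KO libraries lay above all others. The WT libraries had these Fn1 levels at 0, 10 and 1 counts of Ly6c2. Whether the Fn1 RNA came from monocytes or from resident macrophages was not tested. The log2 fold change in ABCG1KO against WT was 2.26 (SE 0.374, 95% interval 1.40 to 3.11, edgeR adjusted p = 0.00680), a 4.77-fold difference that passed the test under all 12 alternative settings. Between LysM-DKO and ABCG1KO the Fn1 difference was -1.55 on the log2 scale, lower in LysM-DKO (SE 0.370, edgeR adjusted p = 0.0312). This call held in 1 of 5 fits with 1 library of these 2 groups left out: it was kept without ABCG1KO replicate 2, fell to -0.98 (edgeR adjusted p = 0.199) without ABCG1KO replicate 1, and was lost without LysM-DKO replicate 1, 2 or 3 (edgeR adjusted p = 0.0825, 0.0694 and 0.0559). Against WT, LysM-DKO was at 0.70 (SE 0.337, 95% interval -0.07 to 1.48, edgeR adjusted p = 0.452), with WT replicate 2 inside the LysM-DKO range.

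Fibronectin is held at the cell surface by integrins and syndecans, and 12 such receptors and partners were all tested. In ABCG1KO against WT 1 rose and 1 fell, with a median of 0.33, near the shares of all genes tested that rose (7.21%) and fell (8.83%). Itgb3, the beta subunit of the vitronectin receptor that also binds fibronectin, was 47.6, 24.1 and 64.3 CPM in WT and 3.58 and 6.32 in ABCG1KO (-3.19, SE 0.555, edgeR adjusted p = 0.00941), and was not called without ABCG1KO replicate 1 (-2.85, edgeR adjusted p = 0.0682). In LysM-DKO it was 46.5, 111.8 and 76.0 CPM. Itga4, the alpha subunit of the fibronectin receptor VLA-4 on monocytes, was 54.5, 99.98 and 95.7 CPM in WT and 157.9 and 145.7 in ABCG1KO. Its difference of 0.87 (SE 0.240, edgeR adjusted p = 0.0442) was kept only without WT replicate 1 among the fits that left out 1 library, and was lost with only the 2 groups compared (edgeR adjusted p = 0.0833). Itga5, the alpha subunit of the classical fibronectin receptor, was 154.4 to 223.6 CPM in WT and 180.5 and 209.1 in ABCG1KO.

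Vcan was low in every WT library and higher in 1 LysM-DKO library and both ABCG1KO libraries. It was 2.02, 2.15 and 1.81 CPM in WT, a span of 1.19-fold. In LysM-DKO it was 2.84, 2.51 and 24.3 CPM, with replicate 3 9.70 times as high as replicate 2, and in ABCG1KO it was 10.9 and 22.9 CPM. The WT range lay below both other groups, which overlapped each other. ABCG1KO differed from WT by 3.08 (SE 0.955, 95% interval 0.87 to 5.30) and did not pass the test (edgeR adjusted p = 0.0665). With only these 2 groups in the fit, which leaves the wide LysM-DKO spread out of the error, the value was 3.08 with SE 0.375 and passed (edgeR adjusted p = 0.00525). LysM-DKO differed from WT by 2.31 (SE 0.883, edgeR adjusted p = 0.397), and by 0.42 without LysM-DKO replicate 3. LysM-DKO against ABCG1KO was at -0.77 (SE 0.917, edgeR adjusted p = 0.608), and without LysM-DKO replicate 3 at -2.66, which passed the test (edgeR adjusted p = 0.0108).

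Fibroblasts are a rich source of versican, and 10 fibroblast markers were read in the same libraries. Their summed level was 800.7, 856.7 and 984.5 CPM in WT, 733.3, 1011 and 1837 in LysM-DKO, with 172.5 and 1265 in ABCG1KO, and no marker was at 0 in any library. The 2 libraries with the highest sums, LysM-DKO replicate 3 and ABCG1KO replicate 2, were the 2 with the highest Vcan. ABCG1KO replicate 1 had the lowest sum of all 8 and a Vcan level of 10.9 CPM, above all WT libraries. The collagen gene Col1a1 was 738.0 CPM in LysM-DKO replicate 3, 549.5 in ABCG1KO replicate 2 and 50.3 in ABCG1KO replicate 1. The part of fibroblast RNA in the Vcan level was not tested, and in bulk RNA more cells of a type and more RNA per cell cannot be told apart.

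Versican is built with chondroitin sulphate chains and lies in a mesh of hyaluronan. Of 19 genes for chain synthesis, hyaluronan synthesis and binding, and versican cleavage, 14 were tested. In ABCG1KO against WT 3 rose and 1 fell, with a median of -0.04, where 7.21% of all genes tested rose and 8.83% fell. Chst11, a chondroitin sulphotransferase, was 150.1, 206.5 and 121.7 CPM in WT and 27.0 and 47.2 in ABCG1KO (-2.10, SE 0.333, edgeR adjusted p = 0.00560), a call kept in all 12 alternatives. Chsy1, which extends the chondroitin chain, was 16.4, 19.6 and 17.1 CPM in WT and 54.3 and 28.02 in ABCG1KO (1.22, SE 0.259, edgeR adjusted p = 0.0181), a call lost without WT replicate 1, WT replicate 3 or ABCG1KO replicate 1. Adamts5, a protease that cuts versican, was 0.157 and 0.566 CPM in ABCG1KO against 2.76, 8.31 and 5.95 in LysM-DKO (LysM-DKO against ABCG1KO 3.94, SE 0.877, edgeR adjusted p = 0.0252, lost without LysM-DKO replicate 2 or ABCG1KO replicate 1). Has2, which makes hyaluronan, was at most 0.718 CPM in WT and was highest in LysM-DKO replicate 3 (2.85 CPM) and ABCG1KO replicate 2 (3.61 CPM), as Vcan was.

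**Figure D2:**
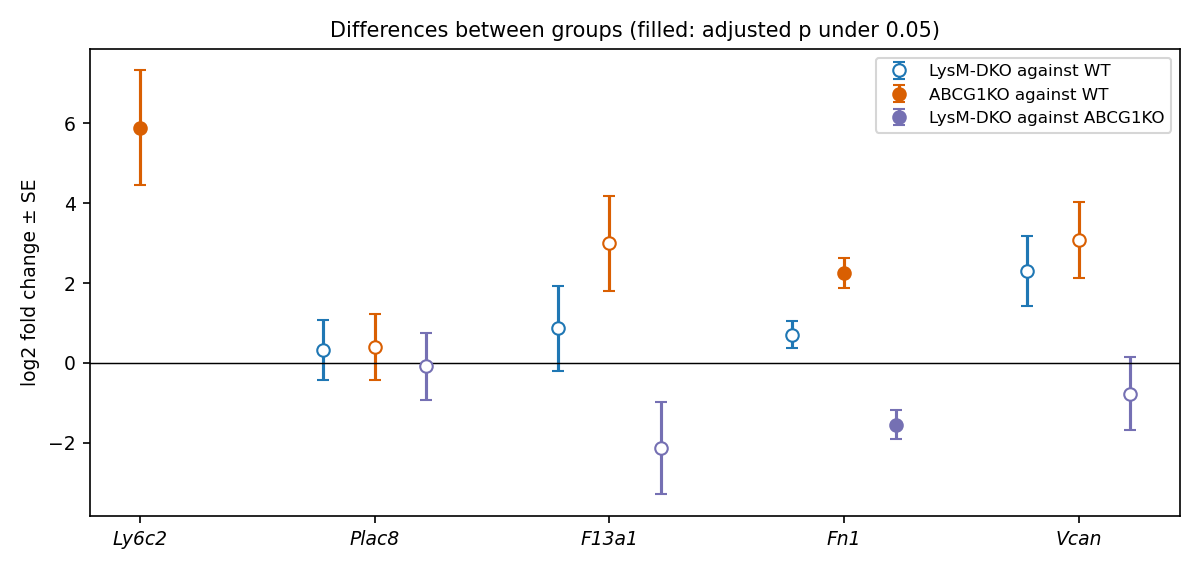
Log2 fold change of each gene in the 3 comparisons from the edgeR fit of all 8 libraries, with bars for ± 1 SE and filled points for an adjusted p under 0.05. Ly6c2 is drawn only for ABCG1KO against WT, because LysM-DKO had at most 1 count in each library.

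The 5 genes were chosen with earlier results of these data known, so their counts and medians beside those of all genes are a description. Ly6c2 also passed the filter on low counts through its ABCG1KO counts alone. Over the 5 genes, 2 of 5 were called in ABCG1KO against WT (Ly6c2 and Fn1, both higher), where 7.21% of all genes tested were called higher, 8.83% lower and 16% in either direction. Those shares are 996 and 1220 genes, and with library size alone in place of TMM 2074 were called higher and 856 lower. Groups did not overlap, with ABCG1KO higher, for 4 of 5, where 23.9% of all genes tested showed this. The median log2 fold change of the 5 was 3.00, against 0.01 over all genes tested. In LysM-DKO against ABCG1KO, 2 of 5 were called lower in LysM-DKO (Ly6c2 and Fn1), where 5.64% of all genes were called lower, 7.76% higher and 13.4% in either direction (1073 higher and 780 lower, or 877 and 1018 with library size alone), and groups did not overlap for 3 of 5 (22.6% of all genes). In LysM-DKO against WT edgeR called 0 of 5, where 0.0362% of all genes tested were called, 0.0217% higher and 0.0145% lower. At an unadjusted p under 0.05 there was 1 of 5 (Vcan), where 11.7% of all genes were under it, and DESeq2 also called 0, giving no adjusted p for Vcan. Vcan was there the only member whose groups did not overlap, with LysM-DKO higher (11% of all genes). With at least 10 counts in every library Ly6c2 was not tested, and 1 of 4 (Fn1) was called in each comparison with ABCG1KO. The comparisons share libraries, so their values for a gene are not independent of each other.

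Per kilobase of transcript, the order of the 5 genes was the same in WT and LysM-DKO. The mean levels in WT were 94.99 CPM per kb for Fn1, 4.13 for F13a1, 0.995 for Plac8, 0.138 for Vcan and 0.0367 for Ly6c2. Fn1 was above all the others in every library, while F13a1 and Plac8 overlapped in range across the WT libraries. Plac8, Vcan and Ly6c2 did not overlap in WT. In LysM-DKO the ranges of F13a1 and Plac8 did not overlap (1.86 to 17.1 against 0.761 to 1.5 CPM per kb), and those of Plac8 and Vcan did. In ABCG1KO the means were 453.4 CPM per kb for Fn1, 33.0 for F13a1, 2.26 for Ly6c2, 1.31 for Plac8 and 1.17 for Vcan, and the last 3 overlapped in range. Among 23376 genes with a length, Fn1 had 469 genes above it in WT, 221 in LysM-DKO, with 54 in ABCG1KO.

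The highest library of a group was the same for all 5 genes in WT and differed between genes in LysM-DKO and ABCG1KO. WT replicate 2 had the highest level of all 5 genes among the WT libraries. In LysM-DKO the highest library was replicate 2 for F13a1 and Plac8 and replicate 3 for Fn1 and Vcan. In ABCG1KO it was replicate 1 for Ly6c2, Plac8, F13a1 and Fn1 and replicate 2 for Vcan. The summed level of 15 interferon-response genes was also highest in replicate 2 among the WT libraries (869.3 CPM against 333.3 and 278.7) and in replicate 2 among LysM-DKO (568.9 against 241.5 and 517.4), and its part in these levels was not tested.

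For each gene, the 3 genes with the most similar pattern over the 8 libraries were found by the root mean square difference of centred log2 CPM. Libraries of 3 genotypes, differing in composition, are the points, so likeness is a description. Ly6c2 was closest to Ccr2, the chemokine receptor of recruited monocytes, at 0.89 log2 units, where Ly6c2 itself varied by 2.64 about its mean. Ccr2 was 3.52, 5.47 and 1.29 CPM in WT, 2.54, 2.41 and 3.75 in LysM-DKO, with 127.2 and 40.2 in ABCG1KO. Next came Mir682 (1.03) and Gm3258 (1.06). F13a1 was closest to Ednrb, an endothelin receptor (0.51), Cd38, an NAD-consuming surface enzyme (0.54), and Il21r, a cytokine receptor (0.76), against a variation of its own of 2.05. Cd38 ran through 15.1, 51.6 and 2.36 CPM in WT, 8.41, 75.8 and 3.65 in LysM-DKO, with 144.7 and 95.6 in ABCG1KO, low in WT replicate 3 and high in LysM-DKO replicate 2 as F13a1 was. Fn1 was closest to Tsku (0.22), Fam46c (0.25) and Ptges, a prostaglandin E synthase (0.25), against 0.95. Vcan was closest to Lrp8 (0.66), Id1 (0.67) and Ankrd1 (0.67) against 1.5, and Plac8 to Gmfg (0.45), the chemokine receptor Ccr1 (0.50) and Irf2bpl (0.52) against 0.85.

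Other monocyte genes were then read from lists. For each list below, the shares over all genes tested in ABCG1KO against WT were 7.21% that rose and 8.83% that fell. Of 15 other genes of classical monocytes, all tested, 6 rose in ABCG1KO against WT and none fell (median 1.39). Ccr2 rose by 4.61 on the log2 scale (SE 0.660, edgeR adjusted p = 0.00446). Hp, which encodes the haemoglobin-binding haptoglobin, was 1.04 to 2.67 CPM in WT and 866.7 and 174.9 in ABCG1KO (8.13, SE 0.865, edgeR adjusted p = 0.00113). Emilin2, a matrix glycoprotein, and Thbs1, thrombospondin, rose by 2.48 (SE 0.338) and 3.53 (SE 0.506), with edgeR adjusted p = 0.00294 and 0.00400. The calls of Ccr2, Hp, Emilin2 and Thbs1 were kept in all 12 alternatives. Not every classical monocyte gene set the groups apart: Chil3, a chitinase-like protein, was 6.27 and 1.23 CPM in ABCG1KO against 1.52, 0.690 and 0.0518 in WT, and the groups overlapped. Of the 15 genes, 14 had a log2 fold change above 0 and 1 below.

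Of 12 genes of nonclassical, patrolling monocytes, 6 rose in ABCG1KO against WT and none fell (median 2.64). Adgre4, an adhesion receptor, was 0.235 to 0.580 CPM in WT and 145.1 and 22.8 in ABCG1KO (7.66, SE 0.997, edgeR adjusted p = 0.00309). Ear2, a ribonuclease, was 0.285 to 0.525 CPM in WT, 0.0242 to 0.125 in LysM-DKO, with 7.37 and 9.98 in ABCG1KO (against WT 4.51, SE 0.627, edgeR adjusted p = 0.00318). Eno3, an enolase, differed by 1.66 (SE 0.261, edgeR adjusted p = 0.00550) and, with Adgre4 and Ear2, kept its call in every alternative in which it was tested. Pglyrp1 rose by 6.285 (SE 1.297, edgeR adjusted p = 0.0169), a call lost without WT replicate 2 or WT replicate 3. Without ABCG1KO replicate 1 its value was 4.859. Nr4a1, also among the 12, is given below with the transcription factors.

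Some genes of resident macrophages rose as well. Of 15 genes of large peritoneal macrophages, 5 rose in ABCG1KO against WT and none fell (median 1.45). Prg4, the lubricant proteoglycan 4, was 0.414 to 2.26 CPM in WT, 0.170 to 2.52 in LysM-DKO, with 499.8 and 60.7 in ABCG1KO (7.64, SE 1.26, edgeR adjusted p = 0.00812). Alox15, a lipoxygenase, was 0.0776 to 1.22 CPM in WT and 884.5 and 135.1 in ABCG1KO (9.45, SE 1.60, edgeR adjusted p = 0.00886), a call lost without ABCG1KO replicate 1 (edgeR adjusted p = 0.0551). Of 12 genes of small peritoneal macrophages, 1 rose and 1 fell (median 1.64), near the shares of all genes (7.21% and 8.83%). Retnla, a secreted protein of alternatively activated macrophages, rose, at 33.1 and 11.8 CPM against at most 0.221 in WT (7.88, SE 1.00, edgeR adjusted p = 0.00218). Like Ly6c2, Retnla passed the filter on low counts only through its ABCG1KO counts, so its call is a description. Itgax, which encodes the integrin CD11c, fell (-3.17, SE 0.571, edgeR adjusted p = 0.0102). Of 11 general macrophage genes 3 rose and 1 fell (median -0.13): Adgre1, which encodes F4/80, by 1.21 (SE 0.242, edgeR adjusted p = 0.0147), and Csf1r, the receptor of the macrophage growth factor, by 1.19 (SE 0.249, edgeR adjusted p = 0.0173), and Cd14, a lipopolysaccharide co-receptor, by 1.87 (SE 0.397, edgeR adjusted p = 0.0185). Cd68, a lysosomal protein, was the 1 that fell (log2 fold change -1.06, SE 0.228, edgeR adjusted p = 0.0192). The calls of Adgre1, Csf1r, Cd14 and Cd68 were lost without ABCG1KO replicate 1, that of Csf1r also without WT replicate 2, that of Cd14 without WT replicate 3 and that of Cd68 without WT replicate 1.

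**Figure D3:**
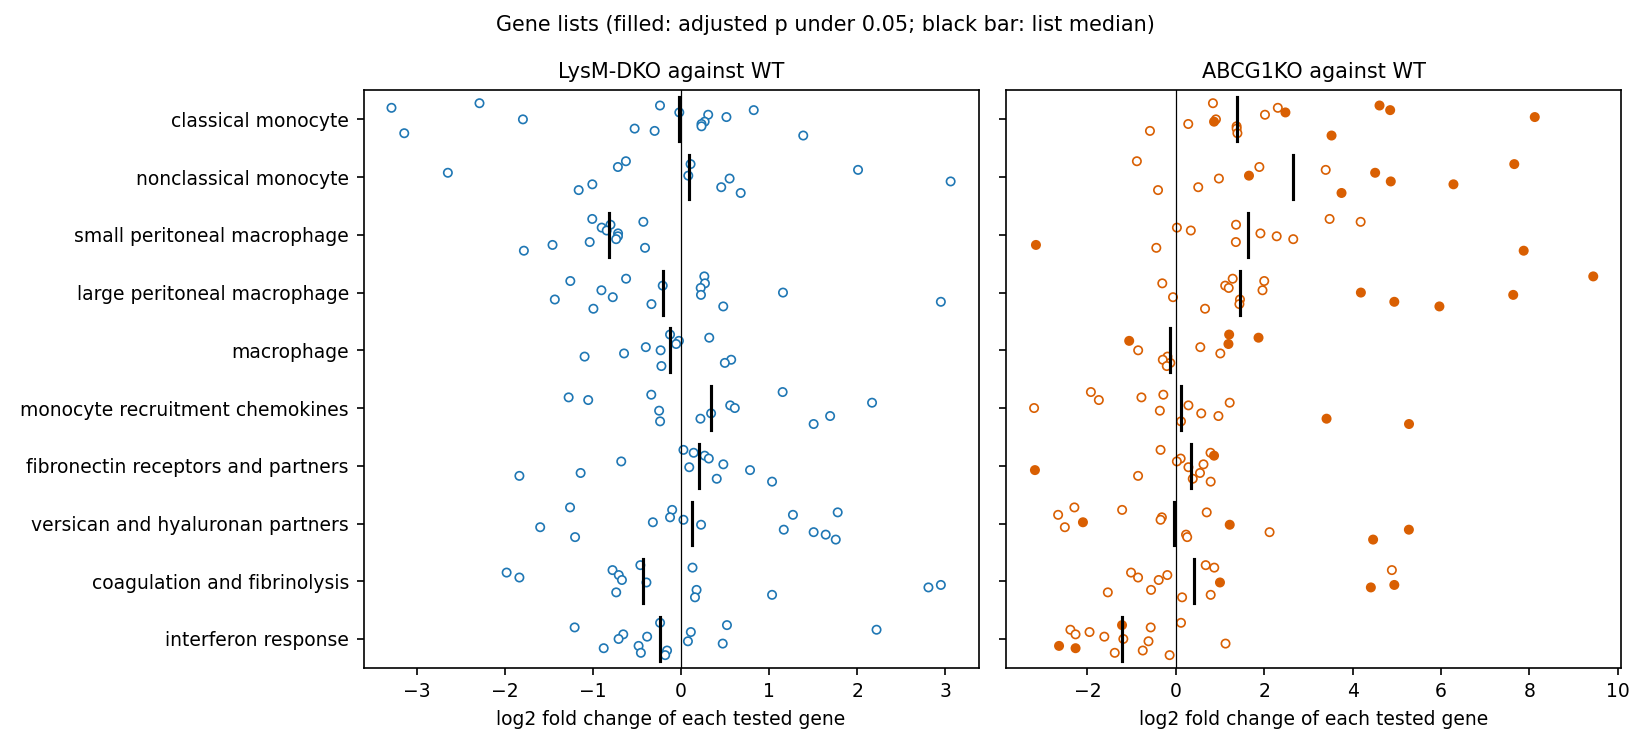
Log2 fold change of every tested gene of the lists (points, filled where the adjusted p is under 0.05) with the median of each list (line), for LysM-DKO against WT and ABCG1KO against WT. No point is filled for LysM-DKO; for ABCG1KO the medians of both monocyte and both peritoneal lists lie above 1 and that of the interferon list below -1.

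Genes for signals that recruit monocytes and for factors that specify them were read next, beside 7.21% of all genes tested that rose and 8.83% that fell. Of 13 chemokine and receptor genes, 2 rose in ABCG1KO against WT (median 0.12), both neutrophil-attracting chemokines: Cxcl2 by 5.28 (SE 1.14, edgeR adjusted p = 0.0212) and Cxcl1 by 3.41 (SE 0.891, edgeR adjusted p = 0.0371). Neither was called when ABCG1KO replicate 1 or any 1 of WT replicates 1, 2 and 3 was left out. Ccl2, the main ligand of CCR2, was 36.0, 26.6 and 4.58 CPM in WT and 18.5 and 18.3 in ABCG1KO. Of 12 transcription factors of monocytes 3 rose (median 0.61). Cebpa, which directs the monocyte and granulocyte lineages, rose by 1.84 (SE 0.298, edgeR adjusted p = 0.00632) and kept its call in all 12 alternatives. Cebpb rose by 1.69 (SE 0.428, edgeR adjusted p = 0.0347) and Nr4a1, a factor of patrolling monocytes, by 4.87 (SE 1.10, edgeR adjusted p = 0.0246), and both calls were lost when WT replicate 1, 2 or 3 or ABCG1KO replicate 1 was left out, that of Nr4a1 also with no count filter (edgeR adjusted p = 0.0541). Of 15 interferon-response genes none rose and 3 fell (median -1.22), among them Rsad2 (viperin; -2.27, SE 0.517, edgeR adjusted p = 0.0231) and Oasl2 (-2.64, SE 0.583, edgeR adjusted p = 0.0223), whose calls were lost when either ABCG1KO library was left out.

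Over all lists together, 210 distinct genes beside the 5 were tested. In ABCG1KO against WT 36 rose and 11 fell, where 7.21% of all genes rose and 8.83% fell, so that the share that fell was below that of all genes. Those counts were 20 and 8 without WT replicate 1 (485 and 888 over all genes) and 25 and 9 without WT replicate 2 (440 and 718 over all genes). Without WT replicate 3 they were 20 and 15 (510 and 812 over all genes). Both were lower without ABCG1KO replicate 1, a fit that leaves 1 library in that group, as were the counts over all genes. In LysM-DKO against ABCG1KO 10 were higher and 34 lower in LysM-DKO, where 7.76% of all genes were higher and 5.64% lower. Those counts, too, were lower without ABCG1KO replicate 1, as were the counts over all genes. In LysM-DKO against WT edgeR called 0 of the 210, with 34 at an unadjusted p under 0.05 (11.7% of all genes), and DESeq2 called 3 higher and 13 lower, of 111 higher and 188 lower over all genes. These lists were written with earlier results of these data known, so the counts are a description. Some list genes, such as Ly6i, Retnla and Siglech, passed the filter on low counts only through their ABCG1KO counts.

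Markers of other cell types were read in the same libraries, since some of them also carry these transcripts. Neutrophil markers summed to 97.0 to 150.4 CPM in WT, 84.2 to 94.3 in LysM-DKO, with 371.4 and 228.0 in ABCG1KO, nearly all from Csf3r, a receptor that monocytes also carry. The defining neutrophil gene Retnlg was at 0 counts in all 8 libraries, and S100a9 was at 0 in the 6 WT and LysM-DKO libraries and at 5 and 6 counts in ABCG1KO. Of 7 mast cell markers, 5 had over 1 CPM in ABCG1KO replicate 1 and 4 in replicate 2, with sums of 47.3 and 8.07 CPM against 0.181 to 3.15 in WT and 0.121 to 0.561 in LysM-DKO. Siglech, a marker of plasmacytoid dendritic cells, was at 0 counts in WT, 1, 3 and 0 in LysM-DKO, with 181 and 202 in ABCG1KO. Over the plasmacytoid list as a whole the sum did not follow Siglech: it was 12.7 to 23.4 CPM in WT and 18.1 and 18.5 in ABCG1KO, and 3 of its 6 tested genes had values above 0 and 3 below in ABCG1KO against WT. Endothelial markers summed to 92.0 to 118.1 CPM in WT, 63.5 to 89.2 in LysM-DKO, with 17.8 and 33.3 in ABCG1KO. Of 6 tested, none rose and 2 fell in ABCG1KO against WT, Kdr (-4.39, SE 0.327, edgeR adjusted p = 0.000116) and Vwf (-2.29, SE 0.347, edgeR adjusted p = 0.00474), and both calls were kept in all 12 alternatives. Among the 6, 2 had values above 0 and 4 below. Pecam1 went the other way, at 2.37 (SE 0.770, edgeR adjusted p = 0.0725), and did not pass the test. B cell markers summed to 116.5 to 154.0 CPM in WT, 97.3 to 134.5 in LysM-DKO, with 45.4 and 53.9 in ABCG1KO, most of it from Cd22, which fell there against WT (-1.52, SE 0.260, edgeR adjusted p = 0.00774). In LysM-DKO against WT edgeR called 0 of the 9 tested B cell genes, with 6 at an unadjusted p under 0.05 (11.7% of all genes). Their median of -4.04 is a fitted value that rests on low counts. Of the 10 B cell genes counted, 8, 3 and 4 were at or under 3 counts in the LysM-DKO libraries, against 1, 0 and 3 in WT. T and NK cell markers summed to at most 4.72 CPM in any library. The part of other cells in the levels of the 5 genes was not tested.

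**Figure D4:**
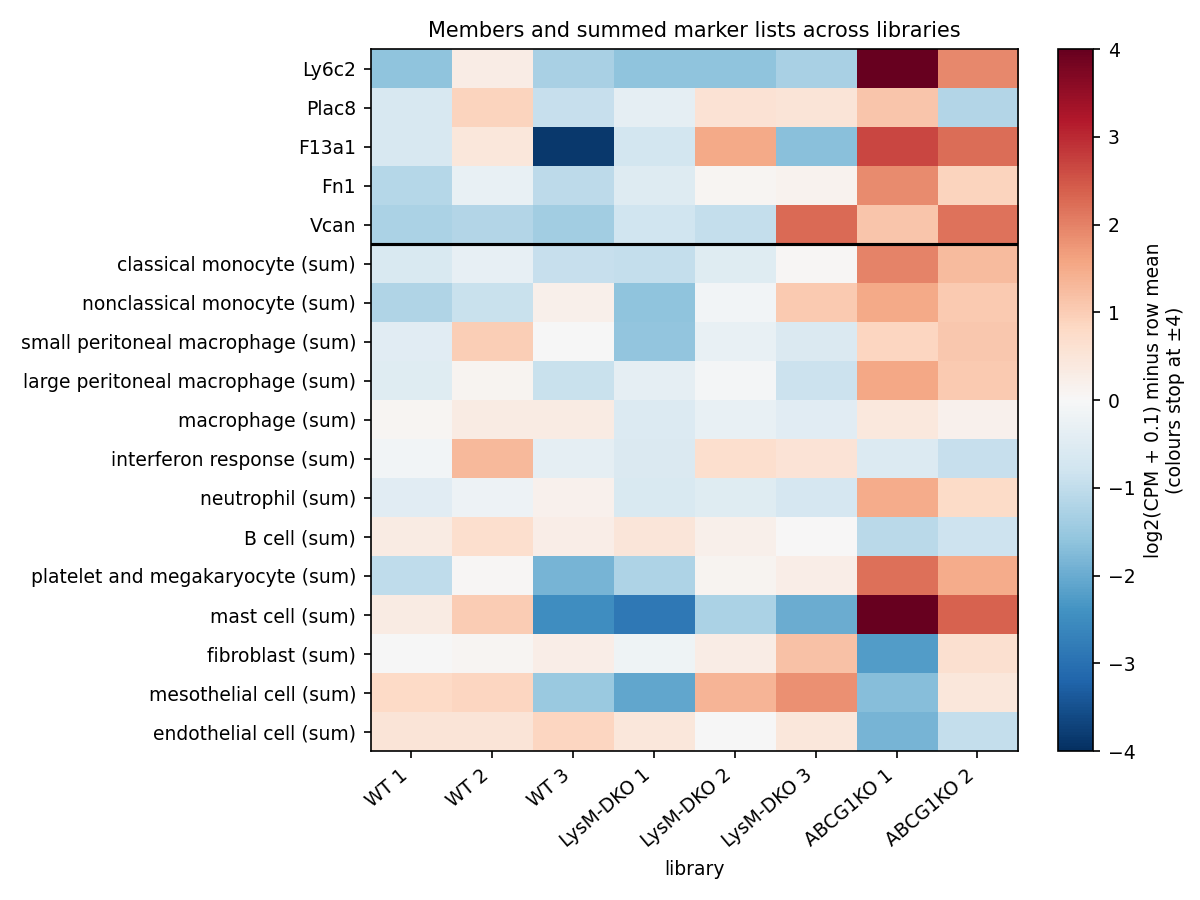
Heat map of the 5 genes (above the black line) and of the summed CPM of marker lists (below it), 1 column per library, coloured by log2(CPM + 0.1) minus the mean of the row, with colours that stop at ±4. Ly6c2 is high in both ABCG1KO columns, F13a1 is lowest in WT replicate 3, Vcan is high in LysM-DKO replicate 3 and in ABCG1KO, and the fibroblast sum is lowest in ABCG1KO replicate 1.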

How the data were processed

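RNA of primary macrophages was extracted with a column kit and sequenced by a commercial provider, per the labels' protocols. The authors deposited raw read counts per gene symbol, as htseq-count output. STAR 2.7.9a, TopHat, HTSeq 0.11.2, DESeq2 1.30.1, limma and build mm10 stand in the submitters' processing notes. Annotation, strand setting and read length are not given in the sources used here. The 5 special lines of each file were left out.

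Counts were fitted with edgeR 4.0.16 in R 4.3.3: filterByExpr by group, TMM scaling, and a robust quasi-likelihood fit of all 8 libraries with a term per group. A call means p under 0.05 after Benjamini-Hochberg adjustment across the 13821 tested genes. The biological coefficient of variation was 36.1%. CPM are counts over TMM-scaled library sizes. Where a group had at most 3 counts in every library, a fold is a bound against 3 counts per library, which covers counting error only. SE is the standard error of a log2 fold change. Replicates differed by far more than sampling noise.

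The 5 genes and the lists were chosen with earlier results of these data known. From each list, at most 4 called genes with a mean of at least 1 CPM may be named, by smallest adjusted p. Some list genes that the counts include are not reported here by name. Chil3, Itga5, Has2, Ccl2, Pf4, Col1a1, Retnlg, S100a9, Gapdh and the sex-linked genes were picked with their values in view. Likeness used a prior count of 2 and genes with a mean of at least 5 CPM. Alternatives were DESeq2 1.42.0 and its size factors, library size alone, no filter, at least 10 counts in every library, a replicate block, the 2 groups alone, and each library left out.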

Additional observations from a re-analysis of the deposited data

How the results depend on the processing

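The number of genes called in LysM-DKO against WT was 5, with 299 by DESeq2, 8 with only the 2 groups, 3 with at least 10 counts in every library and 0 with the replicate block, and 0 to 6 with a library left out. In ABCG1KO against WT it was 2216, with 1456 under the block and 857 to 1870 with a library left out. In LysM-DKO against ABCG1KO it was 1853, with 2982 by DESeq2, 1024 under the block, 948 with only the 2 groups and 563 to 1981 with a library left out. Library size alone moved the median of all genes to 0.17 in LysM-DKO against WT and 0.25 in ABCG1KO against WT.

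Fn1 in ABCG1KO against WT kept its call in all 12 alternatives, at 1.67 to 2.67. Against ABCG1KO, Fn1 in LysM-DKO was not called under the block (-1.59) or with only the 2 groups (-1.56), and ran from -1.97 to -0.98 with a library left out. Ly6c2 in ABCG1KO against WT was not called under the block (5.40, edgeR adjusted p = 0.151) or with only the 2 groups (5.89, edgeR adjusted p = 0.0542), and ran from 3.36 to 8.52 with a library left out. In LysM-DKO against ABCG1KO the fitted Ly6c2 value, which is no bound, was -8.58 under the block (not called, edgeR adjusted p = 0.0818) and -10.87 to -6.56 with a library left out. F13a1 in ABCG1KO against WT passed under the block (2.93, edgeR adjusted p = 0.0447). Vcan there passed with library size alone (3.32, edgeR adjusted p = 0.0464) and with only the 2 groups (3.08), and in LysM-DKO against ABCG1KO it ran from -2.66 (called, without LysM-DKO replicate 3) to -0.13. With a library left out, Plac8 in LysM-DKO against WT ran from -0.017 (without WT replicate 3) to 1.17, in ABCG1KO against WT from -1.31 (without ABCG1KO replicate 1) to 1.25, and in LysM-DKO against ABCG1KO from -0.85 to 1.61 (without ABCG1KO replicate 1; 0.15 without LysM-DKO replicate 1), so its sign turned in each. F13a1 in LysM-DKO against WT ran from -0.61 (without LysM-DKO replicate 2) to 1.85. Of the list genes, Serpinb2, Itga4, Cd14, Cd68, Cxcl1, Cebpb, Chsy1 and Oasl2 were not called in ABCG1KO against WT under the block. Beyond the fewer libraries or genes of each setting, the cause was not tested.

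Same-numbered WT and LysM-DKO libraries deviated together with correlations of 0.041, 0.426 and -0.014, so the numbers were not taken to pair the libraries and the block is given here alone. Ly6c2 was not tested with at least 10 counts in every library, nor in LysM-DKO against WT with only those 2 groups. A fit that leaves 1 ABCG1KO library assumes that it varies like the other groups. With 2 ABCG1KO libraries and Ly6c2 near the floor in WT and LysM-DKO, depth limits that gene. Plac8 had 27 to 113 counts in a library, above the floor, and its 2 ABCG1KO libraries differed 5.56-fold.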
